A study of Mus musculus with 16 samples.

Results

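The contrast examined here is the effect of the Dp16 duplication in cortex that already carries amyloid transgenes: 4 libraries of 5xFAD-Dp16 mice against 4 libraries of 5xFAD mice, 8 of the 16 libraries in the series. The members were chosen by genotype label alone. All 8 mice were 9 months old, each group held 2 females and 2 males, and the tissue was brain cortex with no treatment. 5xFAD mice carry amyloid transgenes, human APP with familial Alzheimer's disease mutations among them, driven by the Thy1 promoter and so made mainly by neurons; both groups carry them. 5xFAD-Dp16 mice carry in addition the Dp16 duplication, which adds a further copy of the genes in the distal segment of chromosome 16. The other 8 libraries, Dp16 and wild-type C57BL/6J, carry no amyloid transgene and entered the fit to estimate the spread between libraries and for the few comparisons with wild-type and Dp16 named below. No source used here names the strain of the other 3 groups or says whether littermates were used, and the p-values measure the spread between these samples.

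The distal segment of mouse chromosome 16 carries most of the mouse counterparts of human chromosome 21 genes, and mice with 3 copies of it serve as a model of trisomy 21. Its genes include App, the precursor of the amyloid peptide, the receptor chains for interferons and interleukin-10, and the kinase Dyrk1a. Amyloid plaques are known to draw microglia into a state with high Cst7, Itgax, Clec7a and Apoe, reached through the receptor Trem2 and its adaptor Tyrobp, while astrocytes around plaques raise Gfap.

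Library totals of the 8 mice ran from 19132245 to 22912168 counts. Cortical markers were high in all 8 libraries: Slc17a7, the vesicular glutamate transporter of excitatory neurons, lay at 210 to 322 RPKM and Mbp of myelin at 494 to 815 RPKM. Ttr, the leading transcript of choroid plexus, ranged from 5.45 to 1910 RPKM, and was high in 3 libraries (5xFAD replicate 4 and 5xFAD-Dp16 replicates 1 and 4). Long and short genes were recovered unevenly between libraries, measured as the slope of a library's log2 deviation on log2 length. The slope averaged 0.022 ± 0.14 over the 5xFAD libraries and 0.036 ± 0.114 over those of 5xFAD-Dp16 (SD, n = 4 per group). Slopes spread most in wild-type, outside the contrast (SD 0.315, from -0.44 to 0.282). Adding the slope as a covariate lowered the biological coefficient of variation, estimated over all 16 libraries, from 0.292 to 0.161. Values below come from the fit without it. For some of the genes whose call the covariate changes, its adjusted p is given too. A gene printed without it may still be called with the covariate.

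In the triplicated segment most genes were higher in 5xFAD-Dp16. Of the 384 segment genes counted, 109 passed the low-count filter, and 97 of these had a log2 fold change above 0. Their median log2 fold change was 0.57 (quartiles 0.38 and 0.74), a fold of 1.49, against 0.0046 over all 17555 genes tested and 0.025 over the 426 tested genes of chromosome 16 outside the segment. All 4 values of 5xFAD-Dp16 lay above all 4 values of 5xFAD for 50 of the 109 genes, against 1.73% of all genes tested; 1 of the 109 lay wholly below, against 1.48%.

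By edgeR's quasi-likelihood test with Benjamini-Hochberg adjustment 0 of the 109 segment genes passed an adjusted p of 0.05, and 51 had an unadjusted p under 0.05, against 1.63% of all genes on the higher side. With the length covariate 47 rose and none fell, against 0.41% of all genes called higher. DESeq2 called 11, against 0.0968% called higher over all genes it tested.

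The segment shift was similar in each mouse. The median over segment genes of log2 CPM minus the 5xFAD mean was 0.53, 0.57, 0.54 and 0.63 in 5xFAD-Dp16 replicates 1 to 4, and -0.06, 0.00, -0.02 and 0.03 in the 5xFAD replicates. The groups did not overlap. The same median over the rest of chromosome 16 lay between -0.03 and 0.04 in all 8 libraries.

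**Figure D1:**
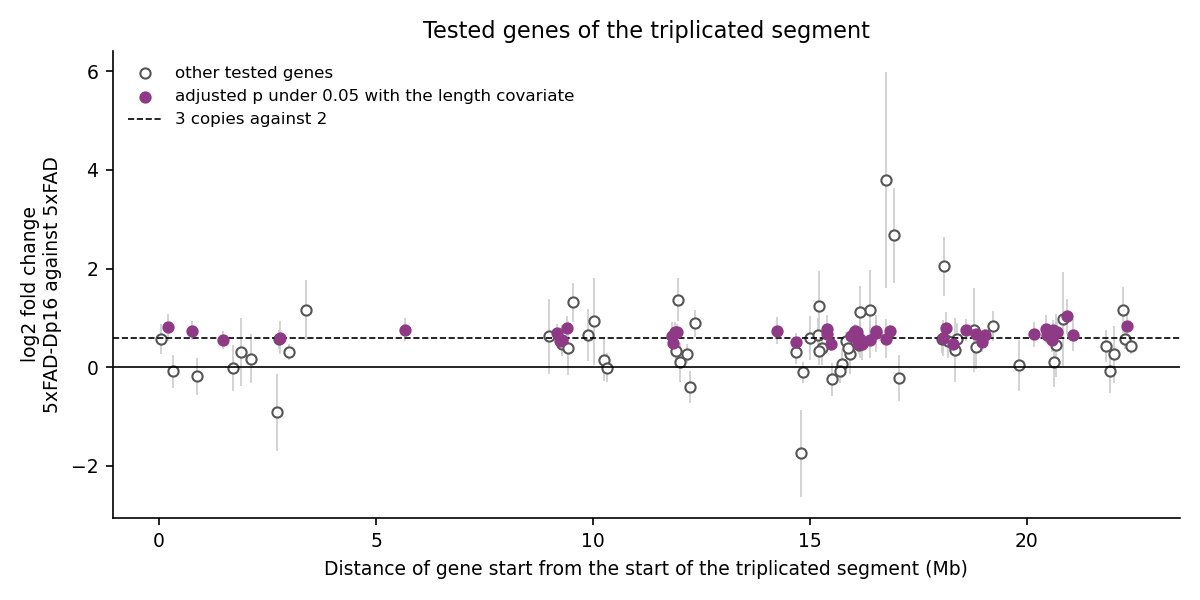
Log2 fold change of 5xFAD-Dp16 against 5xFAD for each tested gene of the triplicated segment (vertical axis, bars show the SE), by distance of the gene's start from the start of the segment in Mb (horizontal axis). Filled points passed an adjusted p of 0.05 with the length covariate; most points lie near the dashed line for 3 copies against 2, and the median is 0.57.

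The shift ran along the whole segment (chromosome 16, 75540514 to 97962622, GRCm38). Ordered by position, the tested genes cut into 4 equal blocks had medians of 0.56, 0.46, 0.59 and 0.66. The nearest tested gene before the segment, Gm49678, had 1.39 ± 0.83 (SE, adjusted p = 1), and the next, Robo2 and Robo1, axon guidance receptors, had log2 fold changes of 0.21 ± 0.20 and 0.03 ± 0.21 (SE). The nearest after it, B230307C23Rik and A630089N07Rik, had 0.24 ± 0.44 and 0.70 ± 0.47 (SE, adjusted p = 1 each). Abundant genes were measured most tightly: among the 27 of highest level all 27 were above 0 with quartiles of 0.54 and 0.74, while among the 28 of lowest level the quartiles were 0.16 and 1.12. The 92 protein-coding genes had a median of 0.58 and the 17 others 0.27.

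Among the amyloid genes of the segment, App stood at 1320, 966, 1260 and 1020 CPM in 5xFAD replicates 1 to 4 and at 1990, 1850, 2360 and 1710 CPM in 5xFAD-Dp16. The groups did not overlap, and the log2 fold change was 0.79 ± 0.24 (SE; edgeR adjusted p = 1, and 4.14e-05 with the length covariate). Reads of the human APP transgene that align to mouse App cannot be told apart from it in these counts. Thy1 itself, whose promoter drives the transgenes, stood at 1990, 1600, 1540 and 1670 CPM in 5xFAD and 2210, 2070, 1900 and 1830 CPM in 5xFAD-Dp16. Those ranges overlapped (0.24 ± 0.14, SE; adjusted p = 1). Bace2, a protease that can cut the amyloid precursor, had 0.42 ± 0.33 (SE).

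The segment holds 4 receptor chains of interferon and interleukin-10 signalling, and all 4 had a log2 fold change above 0 (median 0.59). Ifnar1, a chain of the type I interferon receptor, stood at 31.9, 34.0, 34.9 and 35.3 CPM in 5xFAD and at 52.6, 50.5, 55.6 and 53.5 CPM in 5xFAD-Dp16. The groups did not overlap (0.64 ± 0.14, SE; adjusted p = 0.429, and 1.69e-04 with the length covariate). Ifngr2, of the type II interferon receptor, stood at 53.7, 54.1, 58.9 and 50.2 CPM against 106, 92.5, 82.4 and 71.3 CPM. It rose with the covariate (adjusted p = 0.0144). Ifnar2 had 0.54 ± 0.18 with overlapping groups, and Il10rb, shared by interleukin-10 family receptors, had 0.39 ± 0.15 without overlap (SE); neither passed with the covariate (adjusted p = 0.0991 and 0.205).

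Most genes that respond to or relay interferon had log2 fold changes below 0, and none was called. Mx1 and Mx2, interferon-induced antiviral GTPases that lie in the segment, had -0.07 ± 0.45 and 0.26 ± 0.58 (SE). Mx1 stood at 2.91, 1.23, 1.62 and 2.99 CPM in 5xFAD and 3.59, 1.39, 1.08 and 3.13 CPM in 5xFAD-Dp16, so the groups overlapped throughout. Of 39 interferon-stimulated genes 4 were above 0 and 35 below (median -0.47), with 0 called by edgeR with or without the covariate. Without 5xFAD replicate 4 that median was -0.19. Of 13 relay genes outside the segment 11 were below 0 (median -0.34, and -0.22 without 5xFAD-Dp16 replicate 2). Stat2, a transcription factor of the type I interferon pathway, had -0.51 ± 0.18, and Tyk2, the kinase bound to Ifnar1, had -0.56 ± 0.19 (SE; adjusted p = 1 each).

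**Figure D2:**
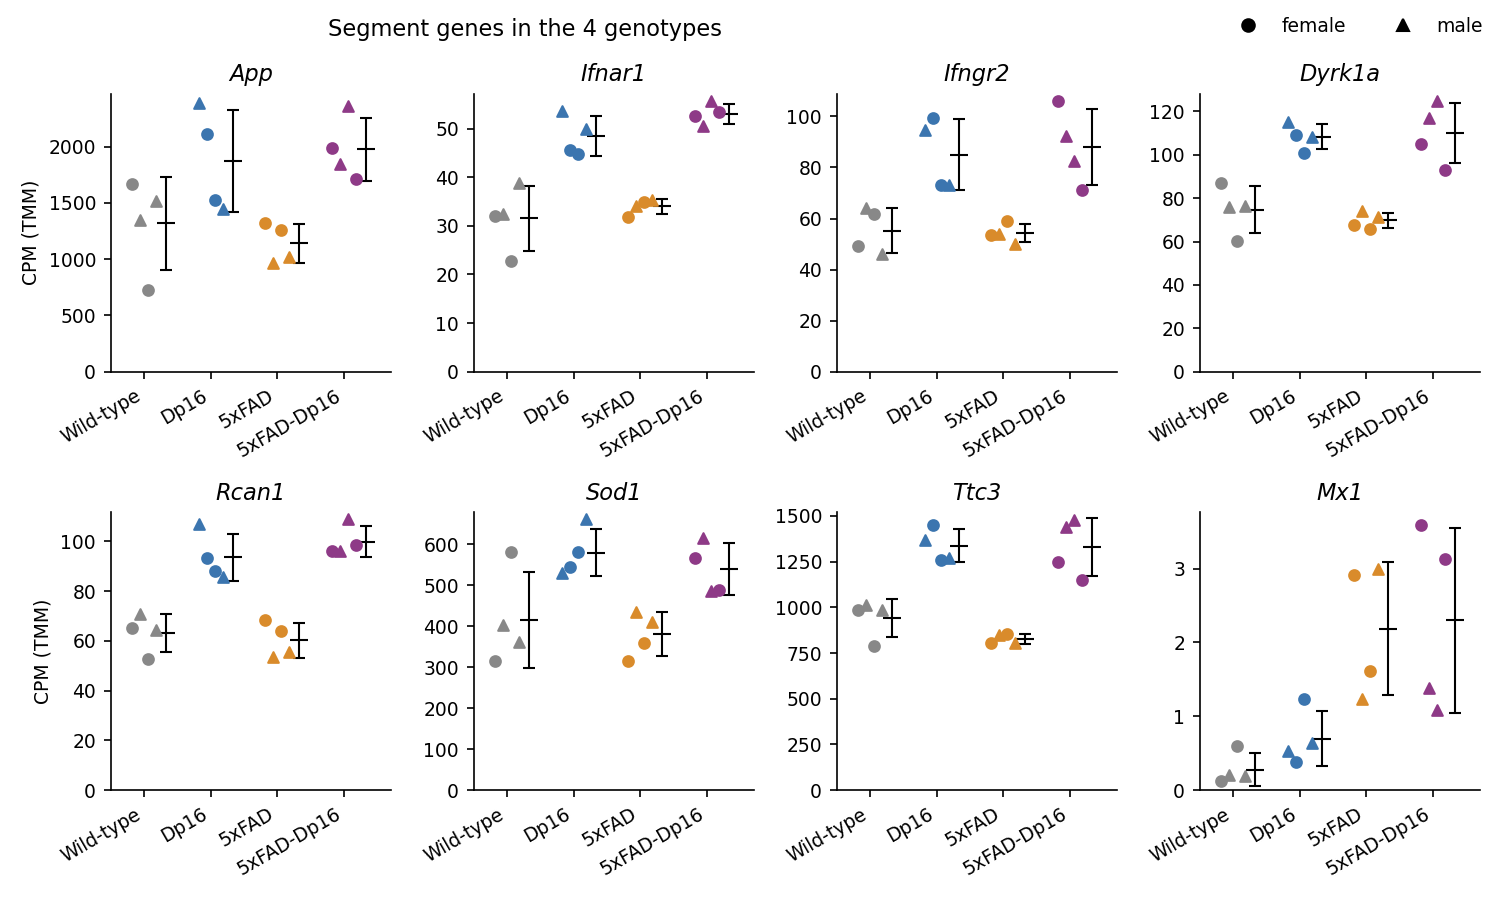
Normalized counts scaled to library size (CPM, vertical axes from 0) of 8 segment genes in each library of the 4 genotypes; circles are females, triangles males, and the black bars show the mean ± SD of 4. In all panels but Mx1 the 5xFAD-Dp16 points lie above all 5xFAD points; Ifnar1, for example, reaches 35.3 CPM in 5xFAD and starts at 50.5 CPM in 5xFAD-Dp16.

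Of 7 kinase and signalling genes 5 were above 0 (median 0.66). Dyrk1a, a kinase that phosphorylates NFAT and tau, stood at 67.8, 73.9, 65.9 and 71.2 CPM in 5xFAD and at 105, 117, 125 and 93.0 CPM in 5xFAD-Dp16, without overlap (0.66 ± 0.13, SE; adjusted p = 0.273, 8.67e-05 with the length covariate and 3.00e-04 by DESeq2). Rcan1, an inhibitor of the phosphatase calcineurin, stood at 68.2, 53.5, 63.9 and 55.4 CPM against 96.1, 96.3, 109 and 98.4 CPM. It too rose with the covariate (adjusted p = 2.05e-05). Tiam1, an activator of Rac1, had 0.74 ± 0.27 (SE) and rose with the covariate (adjusted p = 0.00472). Hunk, a kinase related to AMPK, was lowest at -0.10 ± 0.22 (SE). Over the wider list of 13 calcineurin and NFAT genes, which includes Dyrk1a and Rcan1, 9 were above 0 (median 0.17, and 0.09 without 5xFAD replicate 4). With the covariate 2 of the 13 were called higher, Dyrk1a and Rcan1 themselves, against 0.41% of all genes. Both lie in the segment, and no other gene of the list was called.

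All 7 tested synapse and ion channel genes were above 0 (median 0.89). Pcp4, a calmodulin-binding protein, stood at 292, 474, 243 and 401 CPM in 5xFAD and at 601, 919, 655 and 698 CPM in 5xFAD-Dp16 (1.03 ± 0.35, SE; adjusted p = 1, and 1.22e-06 with the covariate). Grik1, a kainate receptor subunit, had 0.89 ± 0.28, and Synj1, which uncoats synaptic vesicles, had 0.77 ± 0.28 (SE). Kcne2 and Clic6 of this list are also made by choroid plexus. Kcne2 stood at 0.286, 0, 0 and 7.42 CPM in 5xFAD and 16.8, 0.179, 0.0514 and 25.3 CPM in 5xFAD-Dp16, high only in the libraries with high Ttr. Without those 3 libraries its log2 fold change was -1.33.

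All 10 protein quality control genes were above 0 (median 0.71); 9 did not overlap, against 1.73% of all genes, and 9 rose with the length covariate, against 0.41%. Ttc3, a ubiquitin ligase, stood at 805, 851, 852 and 806 CPM in 5xFAD and 1250, 1440, 1480 and 1150 CPM in 5xFAD-Dp16 (0.68 ± 0.13, SE; adjusted p = 0.263, and 4.91e-06 by DESeq2). Cct8, a subunit of the chaperonin that folds actin and tubulin, stood at 151, 169, 171 and 208 CPM against 261, 331, 296 and 259 CPM. Dnajc28 had 0.70 ± 0.15, and Usp16, a deubiquitinase, was the lowest at 0.33 ± 0.19 (SE).

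Of 19 chromatin and transcription genes 17 were above 0 (median 0.48), 8 did not overlap and 7 rose with the covariate, against the same 1.73% and 0.41% of all genes. Brwd1, a bromodomain protein, stood at 61.4, 62.3, 59.5 and 59.5 CPM in 5xFAD and 80.1, 106, 101 and 95.8 CPM in 5xFAD-Dp16. Nrip1, a nuclear receptor corepressor, had 0.74 ± 0.20 and Paxbp1 had 0.46 ± 0.14 (SE). Runx1, a transcription factor that microglia express, was lowest at -0.22 ± 0.46. Olig1 and Olig2, which specify oligodendrocytes and were picked after their values were seen, had 0.07 ± 0.29 and -0.08 ± 0.25 (SE). Of the RNA-processing genes, 4 of 4 were above 0 (median 0.40), led by the splicing cofactor Son (0.46 ± 0.15, SE; 0.00294 adjusted p with the covariate).

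The metabolic groups were also higher. Sod1, the cytosolic superoxide dismutase, stood at 315, 436, 360 and 410 CPM in 5xFAD and 567, 616, 487 and 488 CPM in 5xFAD-Dp16 (0.51 ± 0.19, SE; adjusted p = 1, and 2.49e-04 with the covariate). All 10 antioxidant and metabolism genes of the segment were above 0 (median 0.59) and 8 rose with the covariate, against 0.41% of all genes. Among the 8 were Gart of purine synthesis (0.59 ± 0.13) and Hlcs, which attaches biotin (0.75 ± 0.22, SE). The 21 genes of the genome-wide antioxidant list had a median of 0.01, with Sod1 the 1 called with the covariate, against 0.41% of all genes. All 4 mitochondrial genes of the segment rose with the covariate (median 0.62), against the same 0.41% of all genes. Mrpl39 and Mrps6 of the mitochondrial ribosome had 0.69 ± 0.20 and 0.69 ± 0.38, and Atp5j of ATP synthase had 0.54 ± 0.31 (SE). The oxidative phosphorylation list of 41 genes had a median of 0.01.

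Of 10 adhesion and matrix genes 9 were above 0 (median 0.57). Jam2, a junction protein of vessels, had 0.54 ± 0.13 and Ncam2, a neural adhesion molecule, 0.76 ± 0.23 (SE). Adamts5, which cleaves aggrecan, stood at -0.01 ± 0.29. All 4 membrane traffic genes were above 0 (median 0.64). Tmem50b had the smallest p of the segment, at 83.7, 77.9, 86.4 and 77.4 CPM in 5xFAD and 131, 146, 144 and 122 CPM in 5xFAD-Dp16 (0.74 ± 0.13, SE; adjusted p = 0.249, and 5.37e-05 with the covariate). Samsn1, an adaptor of immune cells picked after its values were seen, lay at -0.08 ± 0.33. The 24 segment genes in no role list had a median of 0.48, with 18 above 0.

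The same duplication can be read without transgenes, in Dp16 against wild-type, which shares no library with the present contrast. The segment median was 0.55 there. Across the 69 segment genes at a mean log2 CPM of 3 or more, the 2 sets of log2 fold changes had a Pearson r of 0.64 and a Spearman rho of 0.40; genes are not independent replicates. With the length covariate 34 of the 47 genes called here were also called there, which is 34 of that comparison's 36 segment calls; there 0.239% of all genes were called higher. The interaction, which tests whether the duplication acts differently with and without the transgenes, had 0 segment genes under an unadjusted p of 0.05, against 1.36% of all genes. With the length covariate it had 3, Pcp4 (0.43 ± 0.13), Gm49708 (-2.92 ± 1.32; picked after its values were seen) and Mx1 (-1.37 ± 0.65, SE), against 4.39% of all genes; none was called (adjusted p = 0.998 each).

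Outside the segment, 1 gene passed by edgeR, 0.0057% of those tested: nonagouti (symbol a; chromosome 2, 154791402 to 155051012, GRCm38), known as a paracrine antagonist of melanocortin receptors in skin and picked here because of its values. It had counts of 0 in all 4 libraries of 5xFAD and 49, 83, 45 and 46 in 5xFAD-Dp16, at least 77.6-fold higher against a floor of 3 counts over the group (adjusted p = 0.00107). Counts were 77, 49, 61 and 68 in Dp16 and 0, 0, 0 and 2 in wild-type, so they followed the Dp16 label in all 16 libraries. The gene passed the low-count filter only through the groups with the duplication, where it was high, so its adjusted p is not independent of that choice. The 10 nearest tested genes had log2 fold changes of -0.23 to 0.15. Without the 3 libraries of high Ttr the counts left were 83 and 45 against 0, 0 and 0, and the gene no longer passed (adjusted p = 0.258, and 3.05e-04 with the length covariate). The annotated gene overlaps Raly (0.03 ± 0.22) and Eif2s2 (-0.04 ± 0.36, SE), and no source used here says whether counting used strand. The source of the nonagouti reads was not tested.

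No other gene outside the segment passed that test. Those named here and in the next paragraph come from the genes of smallest p without overlap between the groups. Their separation therefore follows from the choice. Over all genes tested, segment included, 1.73% lay wholly higher and 1.48% wholly lower. Higher in 5xFAD-Dp16 was Selenov, a selenoprotein, at 0.429, 1.97, 0.437 and 1.05 CPM in 5xFAD against 3.50, 4.88, 4.01 and 4.32 CPM (2.17 ± 0.42, SE; adjusted p = 0.263, and 3.57e-04 with the covariate). Emb, a membrane glycoprotein partner of monocarboxylate transporters, stood at 13.8, 11.7, 13.9 and 14.4 CPM against 19.8, 19.1, 18.6 and 26.3 CPM. It rose with the covariate (adjusted p = 0.00903). Slc5a5, the sodium iodide symporter, had 0.79 ± 0.20, and Cort, a neuropeptide of interneurons, 0.88 ± 0.24 (SE). Both rose with the covariate (adjusted p = 2.36e-04 and 0.00903).

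Lower in 5xFAD-Dp16 was Myoc, a secreted glycoprotein, at 20, 16.4, 25.8 and 22.5 CPM in 5xFAD against 10.3, 5.55, 5.19 and 12.5 CPM (-1.41 ± 0.26, SE; adjusted p = 0.263, and 0.00549 with the covariate). Tbxas1, thromboxane synthase of myeloid cells, stood at 12.7, 10.3, 15.2 and 8.74 CPM against 6.37, 3.45, 2.26 and 8.05 CPM. Cbs, which makes cystathionine from homocysteine and in mouse lies on chromosome 17, stood at 24.7, 23.6, 28 and 20.1 CPM against 15.4, 10, 11.4 and 12.3 CPM. All 3 fell with the covariate, as did Pth1r, Gpc5 and Enpp6; Mfge8 (-0.80 ± 0.21) and Hpgds (-0.99 ± 0.28, SE) did not pass. In all, 25 genes outside the segment rose and 50 fell with the covariate, against 0.41% and 0.285% of all genes, segment included. DESeq2 called 5 higher and 6 lower. Those covariate counts depend on single libraries: without 5xFAD replicates 1, 2 or 3 they were 11 and 18, 8 and 13, and 12 and 11, without 5xFAD-Dp16 replicates 2 or 3 they were 7 and 10, and 12 and 6, and without 5xFAD-Dp16 replicate 1 they were 45 and 145.

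**Figure D3:**
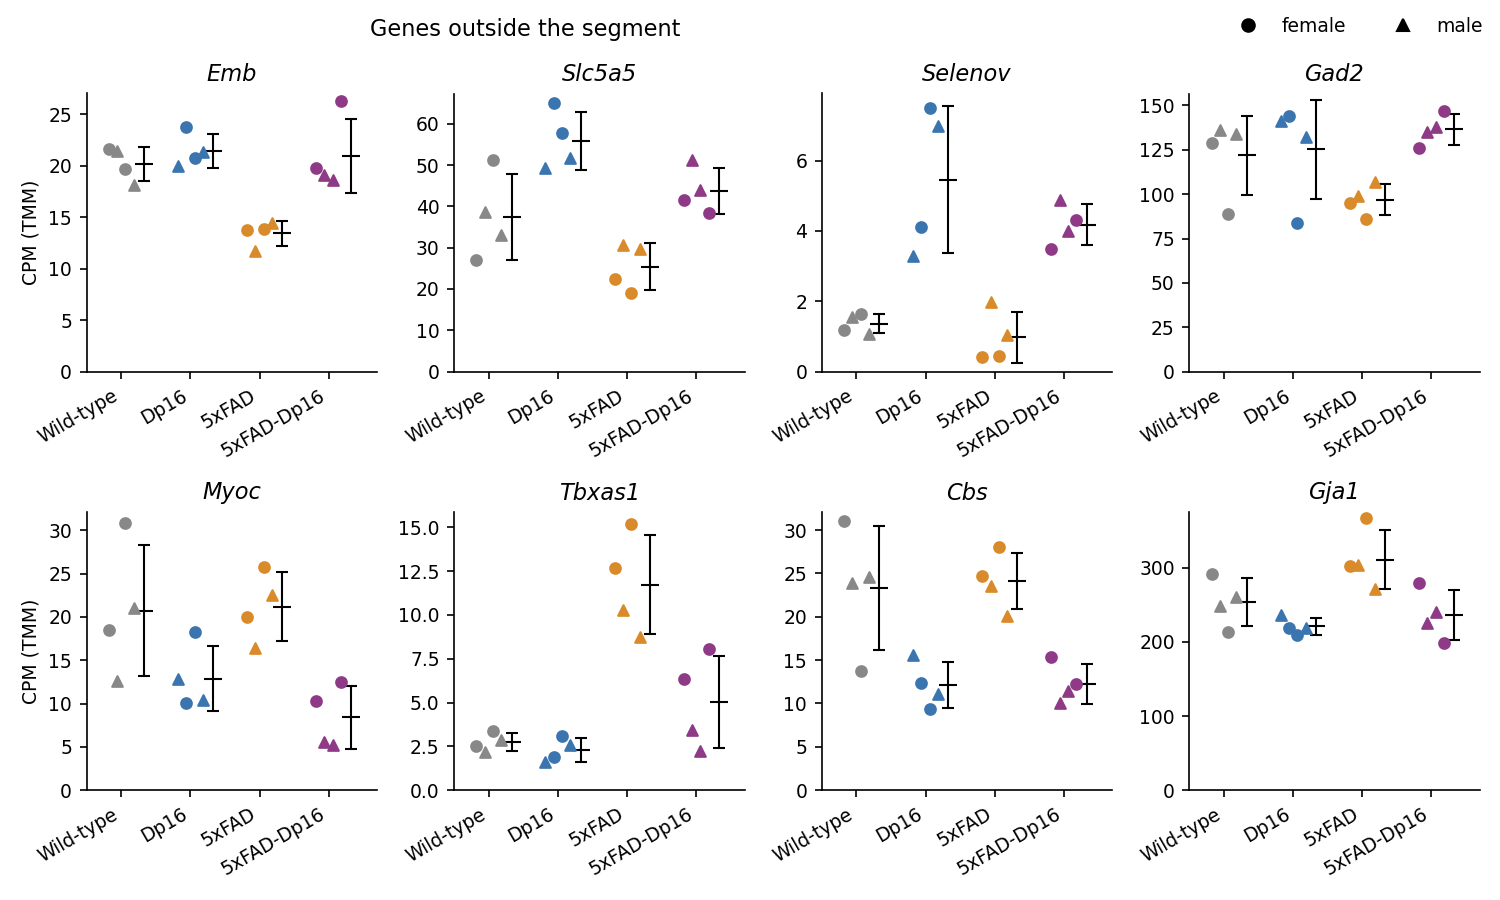
CPM (vertical axes from 0) of 8 genes outside the segment in each library of the 4 genotypes; circles are females, triangles males, and black bars show the mean ± SD of 4. The upper panels hold genes higher in 5xFAD-Dp16 than in 5xFAD and the lower panels genes lower in it, with Cbs at 20.1 CPM or more in 5xFAD and at most 15.4 CPM in 5xFAD-Dp16.

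Microglial genes were lower in 5xFAD-Dp16, mostly without passing a test. Of 35 plaque-associated genes 34 were below 0 (median -0.58), and 10 had an unadjusted p under 0.05 on the lower side, against 1.97% of all genes. With the covariate 1, Igf1, fell, against 0.285% of all genes. Fewer cells of a type and less RNA per cell cannot be told apart in bulk tissue. Cst7, an inhibitor of lysosomal proteases, stood at 149, 143, 166 and 64.2 CPM in 5xFAD and at 115, 48.1, 34.9 and 70.0 CPM in 5xFAD-Dp16. The groups overlapped, since 5xFAD replicate 4 was low and 5xFAD-Dp16 replicate 1 high (-1.06 ± 0.45, SE; adjusted p = 1).

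Igf1, a growth factor, stood at 17.7, 16.1, 21.2 and 11.4 CPM against 13.1, 8.10, 6.12 and 9.89 CPM (-0.85 ± 0.19, SE; adjusted p = 0.542, 0.0204 with the covariate and 0.0308 by DESeq2). Among the others, Itgax had -1.16 ± 0.44, Clec7a -0.88 ± 0.49, Trem2 -0.69 ± 0.30, Tyrobp -0.88 ± 0.34 and Apoe -0.37 ± 0.16 (SE). Against wild-type, 5xFAD alone had called 25 of the 35 higher (1.5% of all genes were called higher), in a comparison that shares the 5xFAD libraries with the present one.

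The lower values were not limited to the plaque-associated state. All 16 pan-myeloid genes were below 0 (median -0.54). With the covariate 1 fell, against 0.285% of all genes: C1qa, which starts the classical complement cascade. It stood at 427, 374, 527 and 353 CPM in 5xFAD and 397, 243, 183 and 349 CPM in 5xFAD-Dp16 (-0.55 ± 0.17, SE; adjusted p = 1, and 0.0411 with the covariate). Of 22 homeostatic microglial genes 20 were below 0 (median -0.44), and 4 lay wholly below, against 1.48% of all genes. P2ry12, a nucleotide receptor of resting microglia, stood at 98.5, 133, 122 and 99.1 CPM against 84.1, 76.6, 54.4 and 74.3 CPM without overlap (adjusted p = 1, and 0.097 with the covariate). Tmem119, a microglial membrane protein, had -0.54 ± 0.22 (SE).

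The myeloid lists varied between mice. The mean of the pan-myeloid list, as log2 CPM minus the 5xFAD mean, was -0.03, -0.87, -1.08 and -0.28 in 5xFAD-Dp16 replicates 1 to 4 and 0.14, -0.13, 0.20 and -0.20 in 5xFAD. The males, replicates 2 and 3, were lowest. Of the females, replicate 1 lay within the 5xFAD range and replicate 4 just below it, and both lay below both 5xFAD females. The plaque-associated median was -0.25 in females and -0.90 in males. The difference between the sexes was not called for any gene by edgeR, with 419 genes under an unadjusted p of 0.05, and DESeq2 called 11. The 2 females are also the 5xFAD-Dp16 libraries with high Ttr, so sex and the level of choroid plexus markers cannot be told apart in that group. Without the 3 libraries of high Ttr the plaque-associated median was -1.03 and the pan-myeloid one -0.93.

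**Figure D4:**
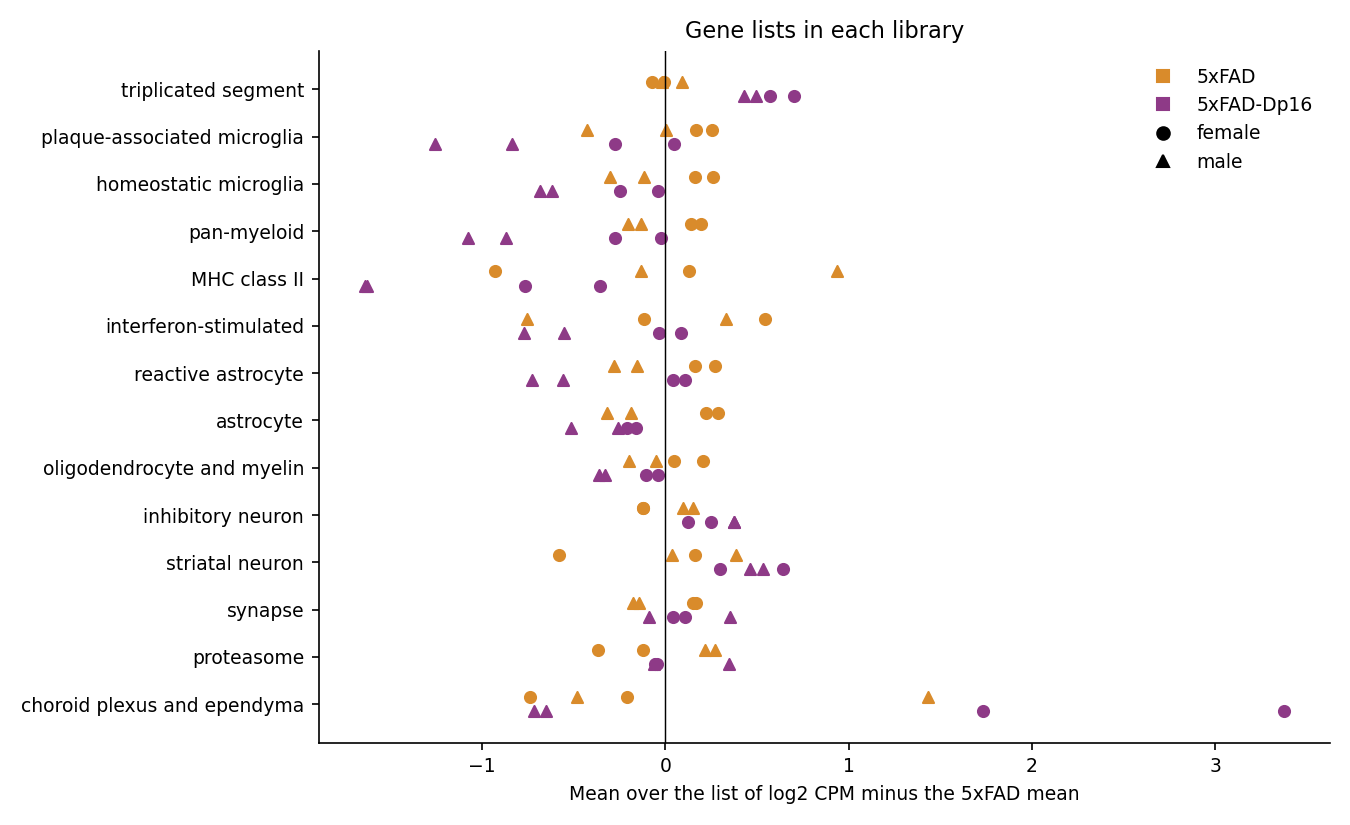
Mean over each gene list of log2 CPM minus the 5xFAD mean (horizontal axis) in each of the 8 libraries, with colour for genotype, circles for females and triangles for males. Segment genes separate the groups without overlap, and the pan-myeloid list is lowest in the 2 male 5xFAD-Dp16 libraries, at -0.87 and -1.08.

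The largest median among the immune lists was that of MHC class II, the genes that present antigen to helper T cells: 6 of 6 tested were below 0 (median -1.45) and 5 had an unadjusted p under 0.05, against 1.97% of all genes on the lower side, but 0 were called. Without 5xFAD replicate 4, the library with the most H2-Aa, that median was -0.83. These genes are known to share an upstream X box and Y box bound by an assembly that includes Rfx5, and promoters were looked up because the 6 lay lower together. RefSeq entries were matched for 4 of the 6, and the 3 with a motif match are printed. They are RefSeq sequences (GRCm38.p6) of 300 bases, from 250 before to 50 after the start, at chr17:34287774-34288073 on the minus strand for H2-Aa, and on the plus strand at chr17:34305617-34305916 for H2-Eb1 and chr17:34152941-34153240 for H2-DMb1. Capitals mark matches, on either strand, to TGATTGG (Y box) or ACTGATG (the end of the X box); the 2 motifs do not overlap here.
H2-Aa: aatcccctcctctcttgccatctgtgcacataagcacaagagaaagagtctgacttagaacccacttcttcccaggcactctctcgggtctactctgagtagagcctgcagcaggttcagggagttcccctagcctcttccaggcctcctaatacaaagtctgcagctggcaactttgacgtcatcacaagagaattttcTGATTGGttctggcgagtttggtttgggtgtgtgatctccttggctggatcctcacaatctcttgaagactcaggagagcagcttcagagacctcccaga
H2-Eb1: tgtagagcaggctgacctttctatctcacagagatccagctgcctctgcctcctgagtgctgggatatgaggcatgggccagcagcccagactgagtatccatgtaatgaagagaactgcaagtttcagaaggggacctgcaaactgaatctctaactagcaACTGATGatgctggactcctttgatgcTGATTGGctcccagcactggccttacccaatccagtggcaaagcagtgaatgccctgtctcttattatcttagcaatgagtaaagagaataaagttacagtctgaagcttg
H2-DMb1: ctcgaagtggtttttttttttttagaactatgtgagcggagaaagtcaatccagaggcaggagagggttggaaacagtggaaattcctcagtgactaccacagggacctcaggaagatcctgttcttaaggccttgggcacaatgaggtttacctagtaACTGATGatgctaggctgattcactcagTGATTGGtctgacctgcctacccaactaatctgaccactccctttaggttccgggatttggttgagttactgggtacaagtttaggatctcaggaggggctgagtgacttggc
Of 32851 promoters of that length 7.82% held the Y box and 3.19% the X box end. H2-Eb1 and H2-DMb1 held both and H2-Aa the Y box. H2-DMa, with 2 listed starts, held neither in either window. Any link between these motifs, Rfx5 and the lower values was not tested.

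H2-Aa stood at 9.57, 23.5, 28.9 and 64.8 CPM in 5xFAD and at 11.6, 5.33, 4.94 and 17.2 CPM in 5xFAD-Dp16, with wide spread in 5xFAD and overlap (-1.76 ± 0.56, SE; adjusted p = 1). H2-Ab1 had -1.61 ± 0.48, H2-DMb1 -0.70 ± 0.24, and Cd74, the invariant chain, -1.37 ± 0.48 (SE). H2-Eb1 and H2-DMa, picked after their values were seen, had -1.52 ± 0.59 and -0.21 ± 0.17 (SE). The females differed little, with a median of -0.35 against -2.64 in males; 4 of the 6 had an unadjusted p under 0.05 for the difference between the sexes, against 2.39% of all genes, and none was called. Rfx5, also picked after its values were seen, stood at 12.1, 8.63, 13.1 and 11.6 CPM against 6.59, 5.64, 6.63 and 8.40 CPM without overlap (-0.74 ± 0.30, SE; adjusted p = 1, and 0.0345 with the covariate). For MHC class I, 16 of 16 were below 0 (median -0.34, and -0.14 without 5xFAD replicate 4) with none called. The median was -0.06 in females and -0.56 in males. B2m, the shared light chain, had -0.21 ± 0.15 (SE). The edgeR interaction, without the covariate, had an unadjusted p under 0.05 for all 6 MHC class II genes, against 1.36% of all genes. So did 9 of 39 interferon-stimulated and 7 of 35 plaque-associated genes, but 0 of 22 homeostatic and 0 of 16 class I genes. None was called, and the interaction includes the libraries of the present contrast. In Dp16 against wild-type the class II, interferon-stimulated and plaque-associated medians were 0.37, 0.20 and 0.04.

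**Figure D5:**
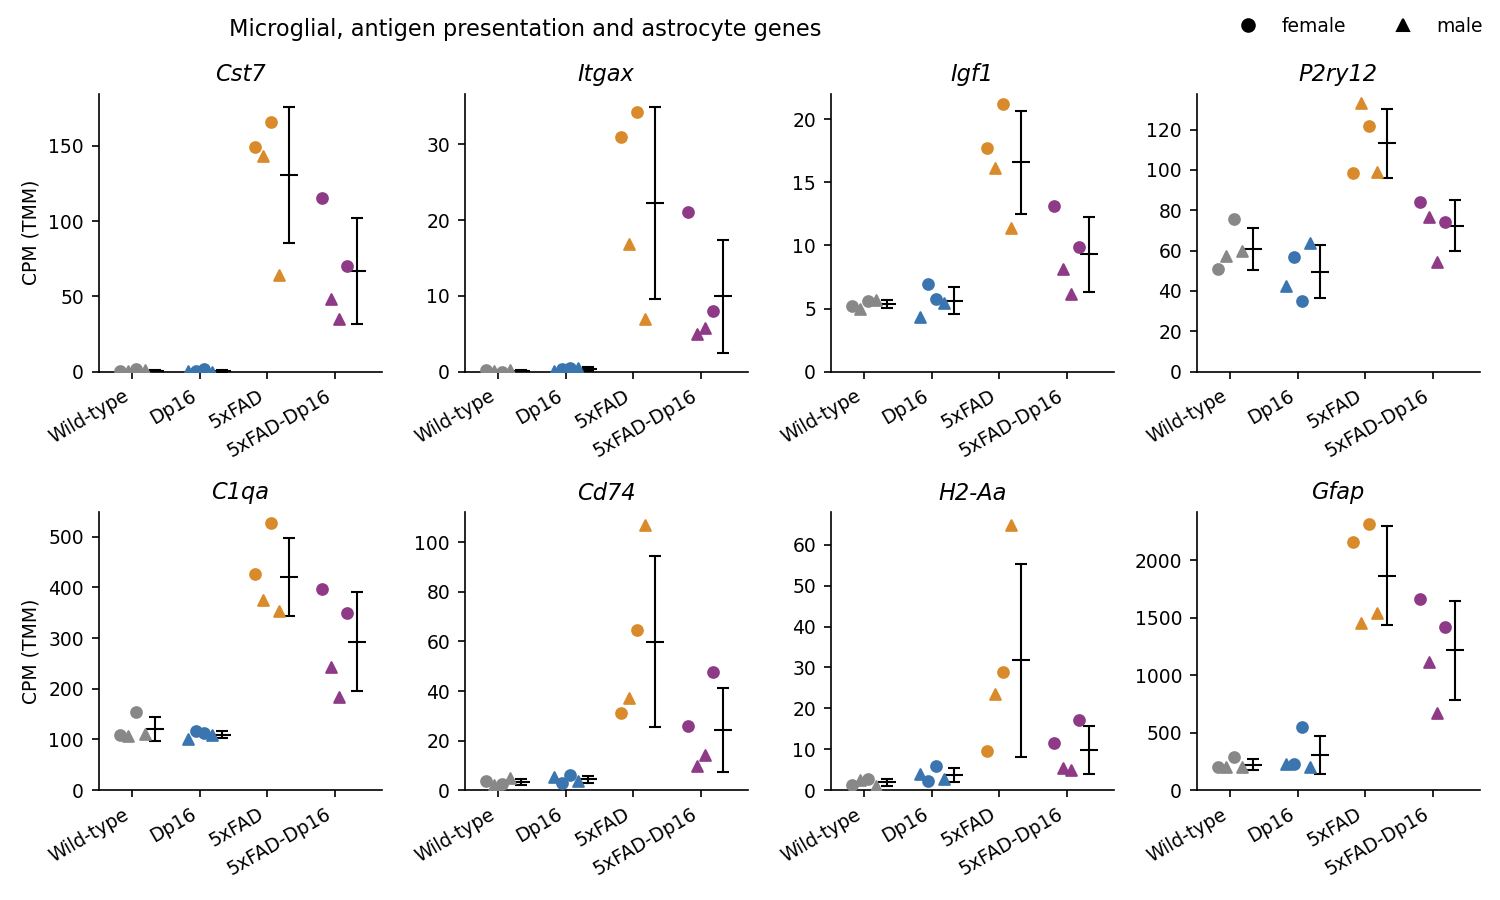
CPM (vertical axes from 0) of microglial, antigen presentation and astrocyte genes in each library of the 4 genotypes; circles are females, triangles males, and black bars show the mean ± SD of 4. The mean of 5xFAD is the highest of the 4 genotypes in the Cst7 panel, and in most panels the male 5xFAD-Dp16 libraries are the lowest of that group; the Cst7 groups overlap between 64.2 and 115 CPM.

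Of 43 lysosomal genes 34 were below 0 (median -0.15, and -0.23 without 5xFAD replicate 4). With the covariate 3 fell, Gusb (-0.68 ± 0.19), Idua (-0.66 ± 0.19, SE) and Grn, against 0.285% of all genes. Ctsd, a lysosomal protease, had -0.53 ± 0.20 (SE). Astrocyte genes were lower too: 18 of 18 were below 0 (median -0.30; -0.46 in females and -0.08 in males), and 5 fell with the covariate, against 0.285% of all genes, among them Mlc1 (-0.41 ± 0.15) and the gap junction gene Gja1 (-0.40 ± 0.15, SE). Of 27 reactive astrocyte genes 23 were below 0 (median -0.37) and none was called. Gfap, the intermediate filament, stood at 2160, 1450, 2310 and 1540 CPM against 1660, 1110, 669 and 1420 CPM with overlap (-0.64 ± 0.24, SE; adjusted p = 1). C4b had -0.29 ± 0.37 and the water channel Aqp4 -0.41 ± 0.16 (SE). Of 23 oligodendrocyte and myelin genes 20 were below 0 (median -0.22); Mbp had -0.33 ± 0.18 (SE).

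Inhibitory neuron genes went the other way: 23 of 26 were above 0 (median 0.28), and 4 rose with the covariate, against 0.41% of all genes. Gad2, which makes GABA, stood at 95.2, 99.2, 85.9 and 107 CPM in 5xFAD and 126, 135, 138 and 147 CPM in 5xFAD-Dp16 (0.50 ± 0.17, SE; adjusted p = 1, and 0.0338 with the covariate). Sst, the somatostatin precursor, lies on chromosome 16 outside the segment and stood at 257, 411, 197 and 369 CPM against 462, 534, 444 and 353 CPM with overlap (0.56 ± 0.22, SE; 0.0293 adjusted p with the covariate). Calb1, which is also on the excitatory layer list, had 0.40 ± 0.16 (SE) and rose with the covariate (adjusted p = 0.0127). Npy had 0.46 ± 0.16 and Gad1 0.22 ± 0.14 (SE). The 14 striatal neuron genes were all above 0 (median 0.44), among them Penk (0.75 ± 0.29, SE), and that median was 0.29 without 5xFAD-Dp16 replicate 4 and 0.09 without the 3 libraries of high Ttr; its part in the inhibitory neuron values was not tested. Excitatory layer genes had a median of 0.15 and synapse genes 0.17 (0.04 and 0.08 without 5xFAD-Dp16 replicate 3), with Slc17a7 at 0.05 ± 0.31 and Snap25 at 0.17 ± 0.22 (SE).

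Choroid plexus and ependyma genes had a median of 2.13, with 12 of 15 above 0 and none called. Ttr stood at 16.6, 30.5, 15 and 615 CPM in 5xFAD and 764, 6.49, 30 and 2180 CPM in 5xFAD-Dp16, so single libraries set that value. Without 5xFAD-Dp16 replicate 4 the median was 0.57, and without the 3 libraries -0.70. The proteasome list lay at 0.03, and 12 of the 13 mitochondrially encoded transcripts were below 0 (median -0.21, and -0.13 without 5xFAD replicate 2), none called. In the list of amyloid production and clearance, 14 of 22 genes were above 0 (median 0.05). App, a segment gene, was the 1 called with the covariate, against 0.41% of all genes called higher. Mme, the amyloid-degrading neprilysin, had 0.45 ± 0.20 (SE).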

How the data were processed

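Polyadenylated cortical RNA (TRIzol; strand-specific Tecan/Nugen libraries; NovaSeq paired ends, per the labels' protocols) was counted by the authors. The submitters' processing notes name HISAT2 2.1.0, HTSeq 0.6.1, SAMtools 1.5, FastQC 0.11.5 and GRCm38; the tables name GENCODE M24. The deposited counts are raw reads per gene; the deposited RPKM values are those counts scaled by length and library total, within a relative deviation of 9.2e-14. Coordinates came from GENCODE M21 (GRCm38).

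The main test was edgeR 4.0.16 (R 4.3.3), quasi-likelihood, TMM, filterByExpr (minimum count 10), on all 16 libraries with sex as covariate, calling an adjusted p under 0.05. SEs come from the F statistic; levels are TMM CPM. The test was checked on simulated data. Sex labels matched in 8 of 8 libraries. Replicate pairs differed beyond sampling noise (chi-square per degree of freedom 16.6 to 68.7). Alternatives were DESeq2 1.42.0, limma 3.58.1 on log2(RPKM + 0.1 or 1) and a gene-length slope covariate (over 11616 genes). Others were voom weights, RLE, no filter, no sex term, replicate block, 8 libraries, and each of those 8 left out. For the interaction each of the 16 was left out. Fits on choroid plexus RNA, and combinations with the slope, were added after seeing the data.

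The contrast and the 45 gene lists were chosen with earlier results of these data known. Named genes were App, Thy1 and a fixed set of 20 glial and neuronal genes, the 3 of smallest p in each list, the lowest member of each segment list, and genes outside the segment of smallest p without overlap and at a mean log2 CPM of 1 or more. Not every gene so selected is printed. Kcne2 follows from the sex contrast. Genes picked otherwise are marked.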

Additional observations from a re-analysis of the deposited data

Results flagged for a closer look

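In a group of 4 libraries, a value counted as standing apart when its gap to the nearest other value took up most of the group's range (a ratio above 0.829); chance alone marks about 1 group in 20, and 12 of the 292 groups checked were marked. In 5xFAD replicate 4, Ttr was 615 CPM against at most 30.5 CPM in the other 3, and Kcne2 was 7.42 CPM against at most 0.286 CPM. In 5xFAD replicate 3, Gm49678, which lies just before the segment, was 0.698 CPM against at most 0.132 CPM.

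In 5xFAD-Dp16 replicate 1, the receptor chains Ifnar2 and Il10rb stood at 40.4 and 17.6 CPM, against at most 25.4 and 13.2 CPM in the other 3. In replicate 4 of that group, Emb was 26.3 CPM against 18.6 to 19.8 CPM, and Clic6 was 50.7 CPM against at most 9.82 CPM. In replicate 2, Olig1 was low at 95.2 CPM against 133 to 138 CPM, Calb1 was high at 190.0 CPM against 127 to 132 CPM, and nonagouti (a) was 3.71 CPM against at most 2.31 CPM. The mean of the excitatory cortical layer list stood 0.41 above the 5xFAD mean (log2 scale) in replicate 3, and that of the proteasome list 0.35 above it in replicate 2.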

How the results depend on the processing

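Counts of called genes depended most on the processing. Given as segment higher, then higher and lower outside it, they were 11, 5 and 6 with DESeq2, 4, 21 and 17 with no low-count filter, 12, 3 and 5 with only the 8 libraries, 22, 6 and 14 with voom sample weights, and 47, 25 and 50 with the length covariate. RLE, no sex term, limma on RPKM and the choroid plexus covariate kept 0, 1 and 0. So did leaving out each of the 8 libraries of the contrast in turn. For these counts no wild-type or Dp16 library was left out. Without the 3 libraries of high Ttr the counts were 0, 0 and 0. In 5xFAD-Dp16 such a fit keeps only the males, replicates 2 and 3, so sex is no longer balanced between the groups. Deviations of same-numbered libraries correlated at r of -0.01, 0.20, 0.28 and 0.11 for replicates 1 to 4. 5xFAD replicate 1 and 5xFAD-Dp16 replicate 3, numbered differently, reached 0.35. The numbers were therefore not taken to pair the mice, and the replicate block gave 0, 1 and 0. With the length covariate the counts were 54, 128 and 185 with the replicate block, 46, 28 and 136 with only the 8 libraries, 45, 50 and 68 with the choroid covariate, and 44, 189 and 248 without the 3 libraries of high Ttr. Leaving out each of the 8 libraries gave 32 to 50 in the segment, 7 to 45 higher and 6 to 145 lower outside. The causes were not tested. Of the interaction, DESeq2 called 3 genes and the fit with no filter 25; of the sex difference, 11 and 40.

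List medians kept within 1 SD of the libraries' spread in all but 30 of 1128 values. With log2(RPKM + 1) they were 0.23 for segment kinases, 0.44 for the segment and 0.48 for choroid plexus. With the choroid covariate the choroid plexus median was 0.19, and 0.21 with the length covariate as well. Without the 3 libraries of high Ttr they were 0.43 for cytokine receptors, 0.84 for segment protein quality control, -0.93 pan-myeloid, -0.63 for chemokines, -0.32 for lysosome, -0.42 for endothelium, -0.68 for mural cells and fibroblasts, -0.70 for choroid plexus, 0.089 for striatal neurons, -0.35 for mitochondrially encoded transcripts, 0.30 for proteasome, 0.35 for stress response and 0.14 for endosome and retromer. With the length covariate too they were 0.81 for segment protein quality control, -1.06 for plaque-associated and -0.76 for homeostatic microglia, -0.96 pan-myeloid, -0.64 for chemokines, -0.76 for choroid plexus, 0.11 for striatal neurons, -0.39 mitochondrially encoded and 0.15 for endosome and retromer. Leaving out each of the 8 libraries gave -0.063 to 0.0072 for antioxidant genes and -0.012 to 0.10 for endosome and retromer.

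Of 98 printed genes, 13 changed sign under some alternative. Without the 3 libraries of high Ttr, without and with the length covariate, Kcne2 was -1.33 and -1.26, Ttr -1.58 and -1.9, and Olig1 -0.14 and -0.061. Hunk was 0.0053 with the choroid covariate and 0.0086 with the length covariate too. Robo1 was -0.024 and -0.019 with those fits, and -0.0057 with only the 8 libraries and the length covariate. Adamts5 and Mx1 were 0.017 and 0.072 without the sex term, 0.0012 and 0.017 with log2(RPKM + 0.1), 0.0048 and 0.023 with log2(RPKM + 1), and 0.13 and 0.10 with voom, where Samsn1 was 0.0038 and Slc17a7 -0.021. Adamts5 was 0.0056 with only the 8 libraries and the length covariate, and Mx1 0.022 with the replicate block and that covariate. Leaving out single libraries gave -0.25 to 0.036 for Hunk, -0.42 to 0.032 for Runx1, -0.092 to 0.24 for Olig1, -0.22 to 0.033 for Olig2, -0.14 to 0.22 for Adamts5, -0.32 to 0.32 for Mx1, -0.073 to 0.65 for Mx2, -0.22 to 0.11 for Samsn1, -0.0090 to 0.46 for B230307C23Rik, -0.12 to 0.11 for Robo1 and -0.076 to 0.14 for Slc17a7. With 4 libraries a group, genes of low level were measured loosely; the SE of Mx2 was 0.58.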
